A study of Mus musculus with 6 samples.

Results

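The enzymes that build ceramide and turn it into the glycolipids and sphingomyelin of myelin were followed in sciatic nerve at postnatal day 14, when Schwann cells wrap axons and lay down membrane. The 10 genes were chosen by name, with earlier results of these data known. In pathway order they are Sptlc1, Sptlc2, Kdsr, Cers2, Degs1, Fa2h, Ugt8a, Gal3st1, Ugcg and Sgms1. They are 10 of the 19057 genes named on the array and were read by 18 probes, of which 16, covering all 10 genes, were bright enough to be tested. The mutants carry the P0-Cre transgene, in which the promoter of the myelin protein P0 drives Cre recombinase in the Schwann cell lineage, and a Dicer genotype labelled "F or N", with no key to those letters. They were set against control littermates titled WT, for which no alleles are listed. Each group had 3 arrays of total nerve RNA, with both sexes named for every sample. Since the labels do not tell single animals from pools, the p-values reflect only sample-to-sample spread, some of which may be technical. One line of the series' text speaks of cultured cells, whereas the title and all sample labels name sciatic nerve.

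Ceramide is made on the endoplasmic reticulum from serine and palmitoyl-CoA, through a reduced intermediate that receives a second fatty acid and is then desaturated. In myelinating glia a large share of it is hydroxylated, joined to galactose to give galactosylceramide, and partly sulfated to sulfatide. These galactolipids are hallmarks of myelin and are needed for stable contacts between glia and axon. The same ceramide can instead receive glucose, which opens the way to gangliosides, or phosphocholine, which gives sphingomyelin.

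The deposited signal is normalized, on a scale resembling log2 that ran from 7.96 to 15.91 with a median of 8.24 on every array. Each difference is mutant minus control on that scale, tested with limma over the 18420 brightest probes, and a gene is called where its brightest probe has a Benjamini-Hochberg adjusted p under 0.05. Whether the scale is plain log2 is not settled, so a fold is given only as the value that plain log2 would imply. Arrays of mutants correlated at 0.973 to 0.993 with each other and arrays of controls at 0.992 to 0.995, against 0.912 to 0.942 between the groups. Dicer1, the gene named in the genotype, averaged 9.17 ± 0.0996 in mutants and 9.19 ± 0.0845 in controls on its brightest probe (SD, n = 3 each, limma adjusted p = 0.832). A dimmer Dicer1 probe was called lower, at 8.39 in mutants against 8.59 in controls (difference -0.20, adjusted p = 0.0458), with no overlap between the groups. Where these probes lie relative to the deleted part is not known here, so they do not check the labels. The Schwann lineage marker Sox10 averaged 13.98 in mutants and 13.94 in controls (limma adjusted p = 0.734), while the Schwann and glial marker S100b was lower in mutants, at 8.91 against 10.10 in controls (limma adjusted p = 0.00236). In whole nerve, fewer cells of a type and less RNA per cell cannot be told apart.

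Of the 10 genes, 8 fell in mutant nerve and 0 rose, while 2, Ugcg and Sgms1, were not called. Over all 10273 genes tested, 39.6% were called, 17.6% lower and 22.0% higher. The 10 genes were chosen with earlier results of these data known, so these shares are given for scale and test nothing. By probe, 12 of the 16 tested were called lower, and over all tested probes 35.8% were called, 15.9% lower and 19.9% higher. Among these 12 is the dimmer Ugt8a probe, which passed the brightness filter only through its control values. In the same 8 genes every mutant array lay below every control array, which held for 25.5% of all genes, while in 29.7% every mutant array lay above, so that the groups were apart in 55.2%. The median difference was -0.64 over the 10 genes and 0.01 over all genes tested. The falls were very unequal. On the brightest probes, the 5 genes of the route to ceramide differed by -0.28 to -0.83 and Gal3st1 by -0.69. The dimmer Cers2 probes lay outside that range, at -0.97 and -0.94. The enzymes that hydroxylate and galactosylate ceramide for myelin differed by more than all of these.

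**Figure D1:**
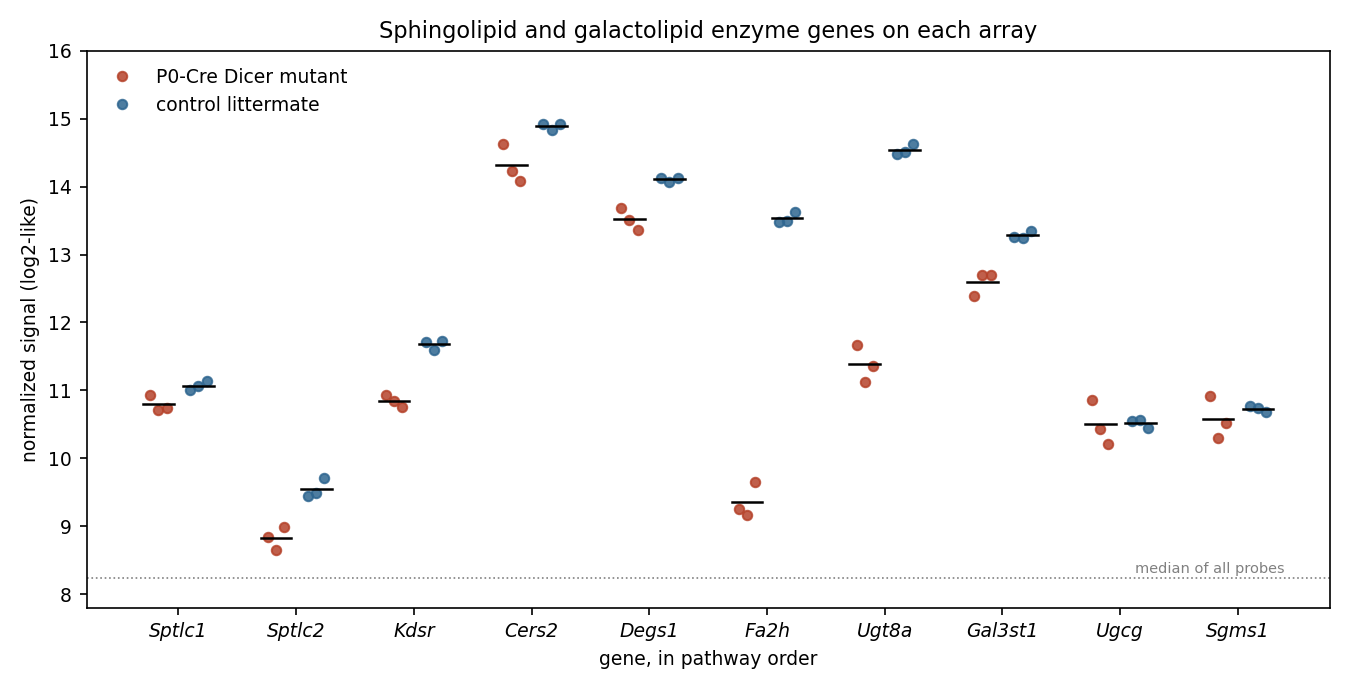
Normalized signal (log2-like, vertical axis) of the brightest probe of each gene, in pathway order along the horizontal axis, with mutant arrays in red on the left and control arrays in blue on the right of each gene. Points are single arrays with replicate 1 to 3 from left to right, black lines are group means, and the dotted line is the median of all probes. Fa2h and Ugt8a show the widest gaps, and the groups overlap for Ugcg and Sgms1.

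The route opens with serine palmitoyltransferase, whose core subunits are encoded by Sptlc1 and Sptlc2. Sptlc1 stood at 10.93, 10.72 and 10.74 on the mutant arrays, against 11.01, 11.06 and 11.14 on the control arrays. All mutant arrays were lower, but the closest pair of arrays differed by only 0.08. The difference was -0.28 (SE 0.075, limma adjusted p = 0.0291), and the call was not stable. It ended in 9 of 13 alternatives: blocking on replicate number raised the adjusted p to 0.0586, and leaving out 1 array raised it to 0.0917 (mutant replicate 2), 0.0759 (mutant 3), 0.0607 (control 1), 0.0800 (control 2) or 0.0966 (control 3). Sptlc2 stood at 8.84, 8.65 and 8.99 on the mutant arrays, against 9.45, 9.49 and 9.71 on the control arrays. The groups were apart on this gene, whose difference was -0.72 (SE 0.108, adjusted p = 0.00276). A second Sptlc2 probe, near the floor of the scale and not tested, averaged 8.29 in mutants and 8.32 in controls.

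Kdsr encodes the reductase of the next step. Its brightest probe read 10.94, 10.85 and 10.76 in mutants, against 11.71, 11.60 and 11.72 in controls. The arrays within a group lay close together and the groups far apart, and the difference was -0.83 (SE 0.067, limma adjusted p = 1.94e-04), the largest fall among the 5 genes of the ceramide route when each is read by its brightest probe. The dimmer Kdsr probe fell by 0.50 (SE 0.070).

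Cers2, the ceramide synthase that attaches very long acyl chains and is the main one of myelinating glia, had 3 tested probes. The brightest read 14.63, 14.23 and 14.08 in mutants, against 14.93, 14.84 and 14.92 in controls, with mutant replicate 1 nearest to the controls. Its difference was -0.58 (SE 0.137, limma adjusted p = 0.0171). This probe was no longer called when mutant replicate 2 (adjusted p = 0.0598), control replicate 1 (0.0632) or control replicate 3 (0.0606) was left out, or both arrays at the ends of the muscle genes described further on (0.0826). The other Cers2 probes fell by 0.97 (SE 0.098) and 0.94 (SE 0.098), and both stayed called under all 12 alternatives run on single probes, with adjusted p of at most 0.00829 and 0.0113. Degs1, the desaturase that completes ceramide, read 13.68, 13.50 and 13.36 in mutants, against 14.12, 14.07 and 14.13 in controls. Here too the groups did not overlap, and the difference was -0.59 (SE 0.086, adjusted p = 0.00243).

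Fa2h, the hydroxylase that puts a hydroxyl group on the acyl chain of myelin galactolipids, read 9.25, 9.17 and 9.65 on the mutant arrays. On the control arrays it read 13.48, 13.50 and 13.62. The lowest control value stood 3.84 above the highest mutant value, and all mutant arrays remained above the median of all probes. The difference of -4.18 (SE 0.128, limma adjusted p = 5.27e-06) would be 18.1-fold on a plain log2 scale, and ranked 3 from the lowest among the 10273 genes tested.

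Ugt8a, the galactosyltransferase that makes galactosylceramide, read 11.67, 11.12 and 11.36 in mutants, against 14.48, 14.51 and 14.63 in controls. Its arrays were as clearly parted, with a gap of 2.81 between the nearest arrays of the groups. The difference was -3.15 (SE 0.136, limma adjusted p = 1.43e-05), or 8.90-fold on a plain log2 scale, and ranked 14 from the lowest. A second Ugt8a probe read 8.32, 8.25 and 8.33 in mutants, against 10.24, 10.31 and 10.54 in controls, a difference of -2.06 (SE 0.086). Its mutant values lie at the median of all probes, close to the floor, which limits how large a difference this probe can show. Their mean of 8.30 is under 8.34, the lowest mean over all arrays of any probe tested, so this probe was tested only through its control values.

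Gal3st1 encodes the sulfotransferase that turns galactosylceramide into sulfatide. It read 12.39, 12.69 and 12.70 in mutants, against 13.26, 13.25 and 13.35 in controls. All mutant arrays were lower, and mutant replicate 1 was the lowest. The difference was -0.69 (SE 0.094, limma adjusted p = 0.00184), in the range of the ceramide route and not of Fa2h and Ugt8a.

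Ugcg encodes the glucosyltransferase that competes for the same ceramide. Its brightest probe read 10.86, 10.43 and 10.21 in mutants, against 10.55, 10.57 and 10.45 in controls, so that the control values fell inside the mutant range. The difference was -0.02, with a 95% interval of -0.40 to 0.36 (limma adjusted p = 0.938). The other Ugcg probe differed by 0.06, with an interval of -0.22 to 0.34 (adjusted p = 0.747). Both intervals exclude a fall as large as those of Fa2h and Ugt8a, though not one like that of Sptlc1 on the brighter probe.

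Sgms1 encodes a sphingomyelin synthase of the Golgi. It read 10.91, 10.30 and 10.53 in mutants, against 10.77, 10.75 and 10.68 in controls, with mutant replicate 1 above all controls and the other mutant arrays below them. The difference was -0.15, with an interval of -0.51 to 0.20 (limma adjusted p = 0.466). Without mutant replicate 1 the gene was called lower, at -0.32 (adjusted p = 0.0156). A dimmer Sgms1 probe pointed the other way, at 8.88 ± 0.0580 in mutants and 8.74 ± 0.0261 in controls (SD, n = 3 each), with every mutant array above every control array, without being called (adjusted p = 0.0835). The remaining Sgms1 probe, near the floor and not tested, averaged 8.16 in both groups.

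**Figure D2:**
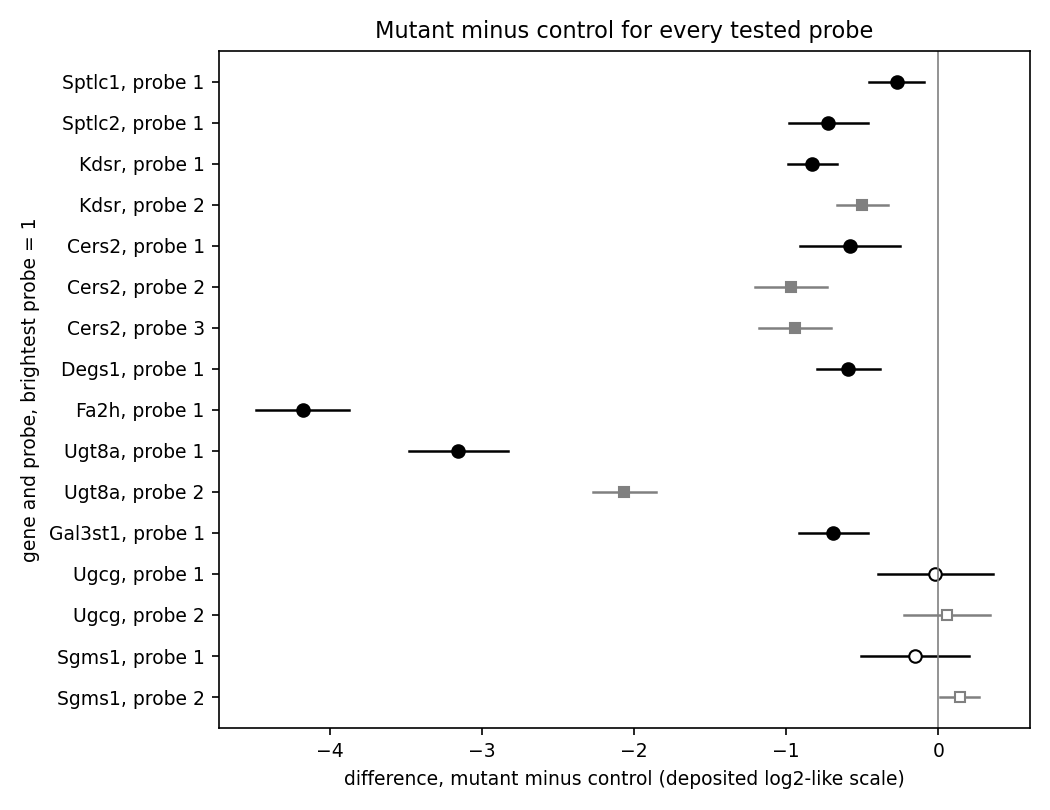
Mutant minus control difference on the deposited log2-like scale (horizontal axis) for each of the 16 tested probes, listed by gene with the brightest probe numbered 1. Black circles are the brightest probes and grey squares the others, filled where called lower, and bars are 95% intervals from limma. Probes of 1 gene point the same way except for Ugcg and Sgms1, whose markers are open.

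On the brightest probe, the spread was wider among mutants than among controls for all 10 genes. On the dimmer tested probes of Cers2, Ugcg and Sgms1 the SD was also larger in mutants. For the dimmer Ugt8a and Kdsr probes it was larger in controls, at 0.158 against 0.0463 in mutants and 0.0878 against 0.0842. How common a wider mutant spread is over all genes was not counted. On the brightest probes, mutant replicate 1 held the highest mutant value for 7 of the 10 genes and mutant replicate 3 for the other 3, Sptlc2, Fa2h and Gal3st1. The 7 include Ugcg and Sgms1, which were not called, and the share of all genes highest in mutant replicate 1 was not counted. Mutant replicate 1 also stood apart from the other mutant arrays on the second principal component, which held 11.7% of the variance of the tested probes. Skeletal muscle markers varied between arrays as well and were lower in mutants, by differences of -1.78 to -0.89 (median -1.25), with 1 of 6 called lower. The mean over 6 of them was 11.48, 11.23 and 9.55 on the mutant arrays, against 11.65, 12.84 and 11.56 on the control arrays. Without mutant replicate 3 and control replicate 2, the ends of that range, 6 of the 10 enzyme genes were called lower, Fa2h and Ugt8a among them, and Sptlc1 and Cers2 were not. Fibroblast and perineurial markers averaged 13.35 to 13.52 on mutant arrays and 12.89 to 13.01 on control arrays, with 3 of 6 called higher. Mast cell markers averaged 9.67 to 10.08 on mutant arrays and 9.13 to 9.24 on control arrays, with 4 of 5 called higher. Among Schwann cell states, all 4 tested markers of myelinating cells fell, with list means of 12.55 to 12.76 on mutant arrays and 14.67 to 14.75 on control arrays. Of 4 tested markers of immature or non-myelinating cells, 2 rose and 1 fell, with list means of 10.67 to 10.76 on mutant arrays and 9.75 to 9.81 on control arrays. The part of these cell types and states in the enzyme differences was not tested. Beside these marker counts, 17.6% of all genes tested were called lower and 22.0% higher.

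Because Ugt8a, Ugcg and Sgms1 all draw on ceramide, the change of one relative to another was read within each array. The Ugt8a signal minus the Ugcg signal was 0.81, 0.70 and 1.15 on the mutant arrays, against 3.93, 3.94 and 4.18 on the control arrays. Subtracting Sgms1 instead gave 0.76, 0.82 and 0.84 on the mutant arrays, against 3.70, 3.76 and 3.95 on the control arrays. The groups did not overlap for either pair, and the shifts were -3.13 against Ugcg and -3.00 against Sgms1. For each, a 2-sided exact permutation test over the 6 arrays gave p = 0.1, the smallest p that 3 against 3 allows, so neither can pass 0.05. With same-numbered arrays paired, the sign-flip permutation p was 0.25, also the smallest possible. Each shift restates the probe differences given above, and the permutation tests could not pass 0.05. The shifts describe unequal transcript differences only and do not compare the amounts of the enzymes.

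**Figure D3:**
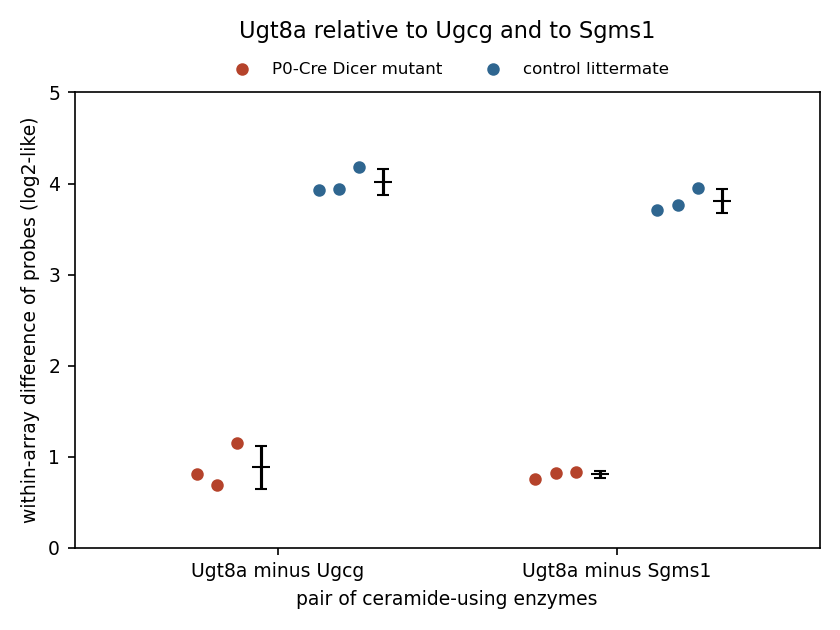
Within-array difference between the brightest Ugt8a probe and the brightest Ugcg or Sgms1 probe (log2-like units, vertical axis), with mutant arrays in red left of control arrays in blue. Points are single arrays and black bars are the group mean ± SD (n = 3 each). Mutant arrays lie between 0.70 and 1.15 and control arrays between 3.70 and 4.18.

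The sequences just upstream of Ugt8a, Ugcg and Gal3st1 are shown because these enzymes act on or directly after the same ceramide branch point and their transcripts differed by -3.15, -0.02 and -0.69. They are the 250 bases before the annotated transcript start, from RefSeq on GRCm38.p6, written 5′ to 3′ on the strand of the gene. Ugt8a is at chr3:125938653-125938902 on the minus strand, Ugcg at chr4:59189300-59189549 on the plus strand and Gal3st1, for the first of its 3 listed starts, at chr11:3983386-3983635 on the plus strand. Capitals mark every match to 6 motifs on either strand: GGGCGG (GC box), CCAAT, GCGNGGGCG (the site of Egr factors), ACAAAG (a Sox site), TCACNCCAC (a sterol regulatory element) and CACGTG (E-box).
Ugt8a: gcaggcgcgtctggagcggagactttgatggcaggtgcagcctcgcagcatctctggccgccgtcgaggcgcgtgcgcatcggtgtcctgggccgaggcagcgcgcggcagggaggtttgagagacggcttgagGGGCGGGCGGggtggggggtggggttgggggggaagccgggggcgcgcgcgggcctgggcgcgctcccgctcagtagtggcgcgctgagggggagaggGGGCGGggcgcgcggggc
Ugcg: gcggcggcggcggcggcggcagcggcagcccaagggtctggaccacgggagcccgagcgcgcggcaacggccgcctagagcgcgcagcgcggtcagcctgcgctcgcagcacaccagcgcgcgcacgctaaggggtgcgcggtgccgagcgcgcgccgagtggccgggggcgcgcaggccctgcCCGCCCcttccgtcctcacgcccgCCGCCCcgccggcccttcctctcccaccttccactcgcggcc
Gal3st1: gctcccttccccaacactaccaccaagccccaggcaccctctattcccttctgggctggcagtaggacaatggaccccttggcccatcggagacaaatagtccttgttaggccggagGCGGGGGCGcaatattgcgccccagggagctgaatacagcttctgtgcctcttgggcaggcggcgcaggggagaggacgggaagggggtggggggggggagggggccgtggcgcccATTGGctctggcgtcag

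Ugt8a held 3 GC boxes, 116, 112 and 18 bases before the start, the first pair of which overlap. Ugcg held 2, at 66 and 42 bases, both on the other strand. Gal3st1 held an Egr match 133 bases and a CCAAT match 17 bases before its start. The 3 sequences are rich in G and C, at 76.8% for Ugt8a, 80.4% for Ugcg and 65.6% for Gal3st1. Among the 15 upstream sequences listed for 9 of the 10 genes (all but Fa2h), a GC box was found in 8, against 32.7% of all 32851 such sequences. CCAAT was found in 6, of which 2 are overlapping windows of Gal3st1, against 33.8% of all, the Sox site in 2, against 16.5%, and the E-box in 2, against 6.02%. The Egr site was found in 2, the same overlapping windows of Gal3st1, against 4.70% of all, and the sterol element in 0, against 1.05%. Both Ugt8a and Ugcg held GC boxes, and the part of any match in the transcript differences was not tested. Such matches describe the letters of these windows only.

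The enzymes that supply acyl chains to ceramide moved with Fa2h and Ugt8a in direction. Of 9 tested genes of long acyl chain elongation, 8 fell and 0 rose, against 17.6% and 22.0% of all genes tested. The 9 genes had a median of -1.15. With any single array left out, 8 were still called lower. Over the 13 alternatives 6 to 8 were called lower and 0 to 1 higher, and among the 12000 brightest probes Elovl4 and Elovl7 were not tested. Elovl6, which elongates palmitate, averaged 10.29 ± 0.107 in mutants against 12.69 ± 0.121 in controls (SD, n = 3 each) and so differed by -2.40 (limma adjusted p = 7.81e-06). Elovl1, which makes the very long chains that Cers2 uses, differed by -1.76 on its brightest probe, and its 3 further probes fell as well. Tecr, Hacd1 and Hsd17b12, which carry out the other steps of the elongation cycle, differed by -1.34, -1.16 and -1.15, and the elongase gene Elovl4 by -0.91. In mutants Elovl4 averaged 8.29, close to the median of all probes and under 8.34, the lowest mean over all arrays of any probe tested. It was thus tested only through its control values, and the floor limits the size of its difference. Hacd2, at 0.16, was not called (adjusted p = 0.0501), but was called higher under 3 of 13 alternatives, with no filter (0.0244), with the intensity trend (0.0257) and with the mean of a gene's probes (0.0401).

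Other ceramide synthesis genes did not move as a group. Of 12 listed, 8 were too dim to be tested, and of the other 4, 1 fell and 1 rose. Their median was -0.03, and over all genes tested 17.6% fell and 22.0% rose. Cers4, another ceramide synthase, averaged 8.33 in mutants against 9.23 in controls and so differed by -0.90 (limma adjusted p = 3.83e-05). Its mutant mean lies under 8.34, the lowest mean over all arrays of any probe tested, so the probe was tested only through its control values and the size of the difference is limited by the floor. Among the 12000 brightest probes it was not tested, and 0 genes of the list were called lower. Cers5, a synthase that prefers palmitoyl chains, differed by 0.26 (adjusted p = 0.0123), a call lost without control replicate 1 (0.0539) and with an intensity trend in the variance (0.0509). Sptssa, a small subunit of serine palmitoyltransferase, and Ormdl3, its inhibitor, differed by 0.03 and -0.10 and were not called.

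The donors for the galactolipid steps split. Of 7 tested genes, with a median of 0.25, 3 rose and 1 fell, against 22.0% and 17.6% of all genes tested. Under 6 of 13 alternatives, 2 of the 7 were called lower. The second was Slc35a2, the Golgi carrier of the galactose donor, with the replicate block (-0.35, adjusted p = 0.0259), without mutant replicate 3 and without both muscle-end arrays. It was Galt, an enzyme of galactose use, without mutant replicate 2, with the 12000 brightest probes and with the intensity trend. Papss1 and Papss2 encode the enzymes that make the sulfate donor PAPS. Papss1 fell, averaging 12.35 in mutants and 12.93 in controls (difference -0.58, limma adjusted p = 9.88e-04), and Papss2 rose, averaging 10.52 in mutants and 10.06 in controls (difference 0.46, adjusted p = 0.00184). Slc35b2 and Slc35b3, which carry PAPS into the Golgi, rose by 0.33 and 0.40, with the Slc35b2 call lost without both muscle-end arrays (adjusted p = 0.0579).

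On the sphingomyelin and ganglioside side, 3 of 7 tested genes rose and 1 fell, against 22.0% and 17.6% of all genes tested. The 7 genes had a median of 0.07. Without mutant replicate 1, 2 were called lower. St3gal5, which makes the first ganglioside from the product of the Ugcg branch, rose by 0.71, to 9.98 ± 0.135 in mutants against 9.27 ± 0.101 in controls (SD, n = 3 each, limma adjusted p = 0.00118). St3gal2, a further sialyltransferase, rose by 0.30 on its brightest probe. A dimmer St3gal2 probe differed by 0.11, with overlapping groups, and was not called (limma adjusted p = 0.245). B4galnt1, which extends gangliosides, was called at 0.19 near the floor of the scale (adjusted p = 0.0393). Its control mean of 8.25 lies under 8.34, the lowest mean of any probe tested, so B4galnt1 was tested only through its mutant values. Among the 12000 brightest probes it was not tested. With the replicate block it was not called (0.0758), nor without mutant replicate 2 (0.0742) or 3 (0.0932) or control replicate 1 (0.121), 2 (0.0788) or 3 (0.109). Samd8, a relative of the sphingomyelin synthases that makes a phosphoethanolamine lipid, fell by 0.45.

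Proteins that carry or gather these lipids ranged widely. Of 8 tested, with a median of -0.10, 4 fell and 2 rose, against 17.6% and 22.0% of all genes tested. The myelin proteins Pllp and Pmp2, of which Pmp2 binds fatty acids, differed by -4.20 and -4.06, and Mal, a myelin protein found in galactolipid-rich membrane, by -1.26. Gltp, which transfers glycolipids between membranes, averaged 12.06 in mutants against 11.59 in controls and so differed by 0.47 (limma adjusted p = 0.0187), which was not called without control replicate 1 (0.0515), 2 (0.0606) or 3 (0.0697), each of which left 1 gene of the list called higher. Vapa, the membrane anchor of lipid transfer proteins, rose by 0.44, a call lost without both muscle-end arrays (0.0640). Cert1, which carries ceramide to the Golgi for sphingomyelin synthesis, differed by -0.22 (adjusted p = 0.0439). The replicate block ended that call (0.0707), as did leaving out mutant replicate 2 (0.103) or 3 (0.104), or control replicate 1 (0.131), 2 (0.0652) or 3 (0.129). The Cert1 call was also lost with no filter (0.0622), among the 12000 brightest probes (0.0591) and without both muscle-end arrays (0.125). It held in 4 of 13 alternatives. A dimmer Cert1 probe differed by -0.17 and was not called (adjusted p = 0.0597).

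Breakdown enzymes showed no common direction. Of 17 tested, 5 fell, 4 rose and 8 were not called, with a median of -0.00214. Among all genes tested, 17.6% fell and 22.0% rose. Arsa, the sulfatase that removes sulfate from sulfatide, fell by 0.48 (limma adjusted p = 0.00367), and Galc, which removes galactose from galactosylceramide, averaged 8.51 in mutants and 8.48 in controls on its brightest probe, near the floor (adjusted p = 0.752). The ceramidase genes Acer2 and Asah2 differed in opposite directions, at -0.50 and 0.48. Hexa and Glb1, lysosomal enzymes of ganglioside breakdown, were called at 0.53 and 0.44, and Gm2a, the activator protein that presents a ganglioside to hexosaminidase, at -0.44. Glb1 was not called when control replicate 1 (adjusted p = 0.0606) or 2 (0.0615) was left out, nor Gm2a without control replicate 1 (0.0583) or 3 (0.0553). With the replicate block 4 were called lower and 3 higher, since the sialidase gene Neu1 (-0.26, adjusted p = 0.0260) and the ceramidase gene Acer3 (0.20, adjusted p = 0.0239) were then not called (0.0636 for Neu1 and 0.0637 for Acer3). Both calls were also lost with the intensity trend in the variance (0.0637 for Neu1 and 0.0981 for Acer3). The same held without both muscle-end arrays (0.0751 and 0.156) and without mutant replicate 2, control replicate 1 or control replicate 2. Acer3 was also not called without mutant replicate 3 or control replicate 3, nor on its dimmer probe (adjusted p = 0.0872). Called counts were 2 higher without control replicate 1 or 2, and 3 lower without control replicate 1.

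Among genes of sphingosine phosphate, the signalling lipid made when ceramide is taken apart, 2 of 6 tested rose and 2 fell. The shares over all genes tested were 22.0% and 17.6%, and the list median was -0.05. Sphk1, the kinase that makes sphingosine phosphate, differed by 1.95 (SE 0.080, limma adjusted p = 1.23e-05). The gene rose to 10.56 ± 0.149 in mutants, against 8.61 ± 0.00935 in controls (SD, n = 3 each). Its control values lie near the floor, and 2 dimmer Sphk1 probes were not tested. Sgpp1, which removes the phosphate, and Aldh3a2, which oxidises the fatty aldehyde left when the lipid is cleaved, fell by 0.95 and 0.72. S1pr2, a receptor, was called at 0.35 (adjusted p = 0.0341), but not without mutant replicate 2 (0.0721) or control replicate 1 (0.0708) or 3 (0.0798), which each left 1 gene of the list called higher. The S1pr2 call was also lost with no filter (0.0773), with the mean of its probes (0.0575) and without both muscle-end arrays (0.0632). A dimmer S1pr2 probe differed by 0.08, with overlapping groups (adjusted p = 0.408).

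**Figure D4:**
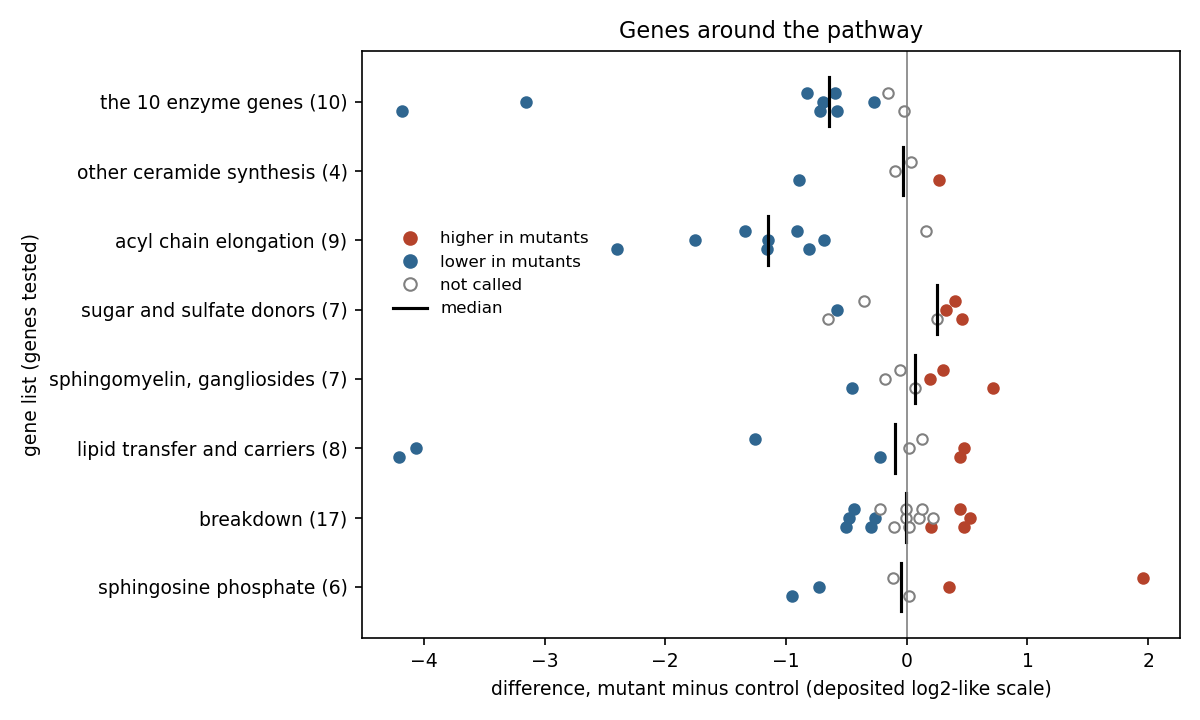
Mutant minus control difference on the deposited log2-like scale (horizontal axis) for the brightest probe of every tested gene, by list, with the number of genes tested in brackets. Red points were called higher in mutants, blue points lower, open points were not called, and black lines are list medians. The medians are -0.64 for the 10 enzyme genes and -1.15 for acyl chain elongation, and between -0.10 and 0.25 for the other lists.

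The genes whose values over the 6 arrays were most like those of Fa2h, Ugt8a and Gal3st1 were found by the root mean square distance between profiles set against their control means. For Fa2h they were Pllp, at a distance of 0.067, Drp2, a gene of the dystroglycan complex, at 0.121, and Pmp2 at 0.187. For Ugt8a they were the collagen gene Col23a1 at 0.195, the ganglioside sialyltransferase gene St8sia5 at 0.221 and Gldn, which encodes a protein of the node of Ranvier, at 0.231. Gal3st1 was nearest to Sdhaf1, Yipf1 and Nudt7, at 0.039 to 0.043. Col23a1 and St8sia5 averaged 8.40 and 8.36 in mutants, near the floor, and 11.40 and 11.31 in controls.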

How the data were processed

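Total RNA of sciatic nerve from 3 P0-Cre Dicer mutants and 3 control littermates was read on Illumina Mouse WG-6 version 2 arrays. The authors deposited log2-like values, made per the labels (the series' design text) with limma and RMA normalization, and the submitters' processing notes name lumi 1.8.3. How background was handled is not stated there. All 6 columns hold the same distribution, which hides any global shift in RNA amount.

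The design text keeps 18420 of 45281 probes by present calls. Such calls were not used here, and as many probes, the 18420 brightest by their mean across the 6 arrays, were taken instead. Probes were named from the platform annotation (34885 with 1 symbol, 18 with several, 10378 with none), and the brightest kept probe stood for a gene. The group difference was fitted in R 4.3.3 with limma 3.58.1 (2-sided, 4 residual and 2.63 prior degrees of freedom), with Benjamini-Hochberg adjustment over all kept probes, and the steps were tested on simulated data. The number of arrays limits the precision.

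The sample titles number the replicates. Deviations from the group mean of same-numbered mutant and control arrays correlated at 0.165, 0.155 and 0.224. Those of different-numbered arrays correlated at -0.157 to 0.028, so the numbers were taken as a possible pairing. Calls, SE and intervals come from the fit without that pairing unless stated, and the fit with a replicate block is given where it changes a call. Other alternatives were the probe filter, the variance model, the centring, the probes of a gene and leaving out each array.

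The enzyme genes and the lists were chosen with earlier results of these data known. Named from the other lists are up to 6 called members with the largest difference, or the 2 brightest where none was called, and the 3 genes nearest in profile to each of Fa2h, Ugt8a and Gal3st1. Elovl1's further probes, Elovl7, Hacd2, Sptssa, Ormdl3, Galc, Slc35a2, Galt, Neu1, Acer3 and the dimmer S1pr2 probe were named after their values were seen. So were the dimmer St3gal2, Cert1 and Acer3 probes. In the pathway lists, 5 genes were not analysed here.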

Additional observations from a re-analysis of the deposited data

How the results depend on the processing

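Of the 10 enzyme genes, 6 to 9 were called lower under the 13 alternatives and 0 higher under any. Sptlc2, Kdsr, Degs1, Fa2h, Ugt8a and Gal3st1 were called lower in all 13, Fa2h at -4.34 to -4.09 and Ugt8a at -3.30 to -2.61. The replicate block left 7 called, with Sptlc1 (adjusted p = 0.0586) lost, and changed no other call among the 10. In the other lists it ended the calls of Cert1, B4galnt1, Neu1 and Acer3, added Slc35a2 and changed no other. Ugcg, not called in any alternative, changed sign with the mean of its probes (0.0185) and without both muscle-end arrays (0.147), and ran from -0.20 to 0.13 when single arrays were left out. The cause was not tested. The alternative without mutant replicate 3 and control replicate 2, chosen after seeing the data and with fewer arrays, called 4140 probes (1898 lower, 2242 higher), against 6596 (2932 lower, 3664 higher) with all arrays. In the 7 other lists it called 9 genes higher, against 15, and leaving out single arrays gave 9 to 15, lowest without control replicate 1. Within arrays, Ugt8a shifted by -3.31 to -2.63 against Ugcg and by -3.05 to -2.60 against Sgms1, and by -3.13 and -3.00 with the pairing. Signal near the floor limits the second Ugt8a probe, Elovl4, Cers4, Galc, B4galnt1 and the control values of Sphk1.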
